A study of Homo sapiens with 2 samples.

Results

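The 10 genes examined here encode the cardiac calcium-handling machinery (RYR2, ATP2A2, PLN, SLC8A1, CACNA1C, CACNA1D, CACNB2, TRDN, CASQ2 and JPH2). They were chosen by symbol among the 36601 genes counted in each of 2 blood-generating heart-forming organoids (BG-HFOs), and all 10 were present in both libraries. Both organoids were made from the human embryonic stem cell reporter line hES3 NKX2.5-eGFP, in which eGFP marks NKX2-5 expression. Aggregates embedded in Matrigel received the WNT activator CHIR and later the WNT inhibitor IWP2, together with growth factors and cytokines added in steps (among them BMP4, bFGF, VEGF, SCF, EPO, IL-6, IL-11, IGF-1, FLT3, IL-3 and SHH), and both organoids were collected on day 14. Organoids 32.7 and 33.10 each gave 1 droplet library, so they are 2 samples of 1 condition (n = 2), with no untreated group, and comparisons were made between cell classes within them. All cells came from 1 stem cell line, which limits what the samples can say of other genetic backgrounds.

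In a heartbeat, calcium enters the cardiomyocyte through L-type channels of the surface membrane and opens release channels of the sarcoplasmic reticulum, the internal calcium store. Contraction ends when a reticulum pump takes the calcium back up and an exchanger in the surface membrane exports it. The channels and the store face each other in junctions that dedicated proteins hold together, and in the developing heart this system is assembled gradually.

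Cells were assigned to classes by raw counts of unique molecular identifiers (UMIs, 1 per captured transcript molecule) of genes that are not among the 10. MYH6-positive cells had at least 5 UMIs of MYH6, the atrial and embryonic myosin heavy chain. Cells that met both the epicardial and the mesenchymal threshold counted as epicardial alone and were kept. Cells that passed the gates of several lineages after this rule were left out, among them 997 of 2140 and 1156 of 2261 cells that met the MYH6 threshold. This gave 1143 and 1105 MYH6-positive cells in organoids 32.7 and 33.10, of 16792 and 19893 cells kept. The other gates gave 2384 and 2287 endothelial, 1122 and 1490 epicardial, 2194 and 1581 mesenchymal, 766 and 2242 megakaryocyte, 591 and 1552 erythroid, and 585 and 322 macrophage cells. Between 31.2% and 33.0% of the cells passed no gate. The summed level of each of these classes' markers was highest in its own class in both organoids. The 8 cardiomyocyte markers summed to 29060 and 25812 UMIs per 1000000 of the class sum (CPM) in MYH6-positive cells and to at most 1382 in the 6 other classes. In cells that passed no gate they summed to 2508 and 2260 CPM. The 6 epicardial markers separated weakly, with 281 and 282 CPM in epicardial-gated cells, 231 and 250 in macrophages and 187 and 169 in mesenchymal cells. Epicardial and mesenchymal cells differed in 61 of 21681 genes (0.281%) in the fit without the organoid as a block, and both are named here by their gates. With the organoid as a block they differed also in PLN, SLC8A1, CACNA1D and ATP2A2, and the count over all genes was not made there. MYH6-positive cells had a higher median share of mitochondrial UMIs (7.86% and 7.39%) than the 6 other classes (2.42% to 5.20%). The libraries shared 100 barcode sequences.

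The genes occupy between 13.4 kb (PLN) and 792 kb (RYR2) of the genome (GRCh38, GENCODE v44 annotation), and all but ATP2A2, PLN and JPH2 are under 5% exonic. RYR2 lies on the plus strand of chromosome 1 (237042184 to 237833988), PLN on the plus strand of chromosome 6 (118548296 to 118561716), TRDN on the minus strand of chromosome 6 (123216339 to 123637189) and CACNA1C on the plus strand of chromosome 12 (1970772 to 2697950). RefSeq start-site windows (250 bases before to 50 after, GRCh38.p14) were found for all 10 genes, 16 windows in all. They are shown for 4 genes with different patterns over the classes: RYR2 and PLN, found also in epicardial-gated cells, TRDN, the gene found there least relative to MYH6-positive cells, and CACNA1C, found also in endothelial cells. Each sequence runs 5′ to 3′ on the strand of its gene. Capitals mark matches, on either strand and overlapping ones included, to the 6 motifs given after the sequences; the TRDN window held none.
RYR2, chr1:237041934-237042233, plus strand: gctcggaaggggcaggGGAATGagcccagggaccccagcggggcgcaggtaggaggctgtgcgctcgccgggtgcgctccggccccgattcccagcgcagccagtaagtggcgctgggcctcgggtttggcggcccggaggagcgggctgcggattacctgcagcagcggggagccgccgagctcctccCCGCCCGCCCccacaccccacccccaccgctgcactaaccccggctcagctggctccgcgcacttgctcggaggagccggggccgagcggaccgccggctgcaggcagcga
PLN, chr6:118548046-118548345, plus strand: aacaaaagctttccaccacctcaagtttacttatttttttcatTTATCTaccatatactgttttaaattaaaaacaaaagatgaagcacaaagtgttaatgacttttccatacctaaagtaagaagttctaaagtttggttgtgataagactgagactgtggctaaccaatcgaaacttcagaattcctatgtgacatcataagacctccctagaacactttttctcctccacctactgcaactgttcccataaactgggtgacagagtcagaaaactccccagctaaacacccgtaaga
TRDN, chr6:123636901-123637200, minus strand: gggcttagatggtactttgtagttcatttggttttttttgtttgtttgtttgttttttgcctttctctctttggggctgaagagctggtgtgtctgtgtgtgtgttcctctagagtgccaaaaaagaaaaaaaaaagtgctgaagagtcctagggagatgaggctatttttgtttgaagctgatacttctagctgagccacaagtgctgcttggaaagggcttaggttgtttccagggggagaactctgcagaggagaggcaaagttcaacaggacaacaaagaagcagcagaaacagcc
CACNA1C, chr12:2052737-2053036, plus strand: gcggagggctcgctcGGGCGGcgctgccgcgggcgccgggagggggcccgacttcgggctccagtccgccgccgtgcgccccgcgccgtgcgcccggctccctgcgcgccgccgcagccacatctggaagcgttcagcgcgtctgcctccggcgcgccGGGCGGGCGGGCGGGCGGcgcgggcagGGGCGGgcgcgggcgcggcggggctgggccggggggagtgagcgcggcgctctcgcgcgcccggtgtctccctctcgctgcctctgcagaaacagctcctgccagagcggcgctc
The GATA factor motif AGATAA was in windows of PLN, SLC8A1 and CACNB2 (3 of 16 windows; 10.3% of all 35116 windows hold it). The TEAD-type motif GGAATG was in 1 window, of RYR2 (14.0% of all windows). The TATA box motif TATAAA was in 1, of SLC8A1 (11.5%), and the MEF2 motif in 2, of ATP2A2 and CASQ2 (2.99%). The CArG box was in none of the 16 (1.29% of all windows). The GC box motif GGGCGG was in 6 of 16 windows and in 45.0% of all. GC content was 75.3% in the RYR2 window and 82.3% in that of CACNA1C, and 36.7% and 43.7% in those of PLN and TRDN. The CACNA1C and TRDN windows belong to starts inside the annotated genes. These matches describe the letters in the windows and not binding.

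All 10 genes were higher in MYH6-positive cells than in each of the 6 other classes, and both organoids gave the same direction each time (edgeR quasi-likelihood test on class sums, Benjamini-Hochberg adjusted p under 0.05 in all 60 tests). The 6 tests of CASQ2 among them add little, since its few UMIs let it pass the filter on low counts only through the MYH6-positive class. Of all 21681 genes tested, the share called higher in MYH6-positive cells was 28.2% against endothelial, 16.6% against epicardial, 16.8% against mesenchymal, 28.7% against megakaryocyte, 32.1% against erythroid and 29.2% against macrophage cells. The shares called lower, in the same order, were 28.0%, 20.5%, 20.4%, 28.9%, 26.8% and 28.1%. The median log2 fold change of the 10 genes was 6.28, 3.29, 3.72, 5.50, 6.06 and 5.18 in the same order, where the median over all genes was between -0.07 and 0.13. With CASQ2 set at its bound against erythroid cells, which had no UMI of it, the 6.06 became 5.65. Between the other classes the share called in either direction was 52.8% for endothelial against epicardial, 51.2% against mesenchymal, 54.3% against megakaryocyte, 56.6% against erythroid and 47.6% against macrophage cells. It was 57.9%, 61.4% and 56.0% for epicardial-gated against megakaryocyte, erythroid and macrophage cells, and 56.5%, 61.1% and 55.1% for mesenchymal against the same 3. It was 44.8% for megakaryocyte against erythroid, 42.6% for megakaryocyte against macrophage and 45.1% for erythroid against macrophage cells. Because UMIs came from introns as well as exons and the genes differ in length, levels are compared between classes and never between genes.

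**Figure D1:**
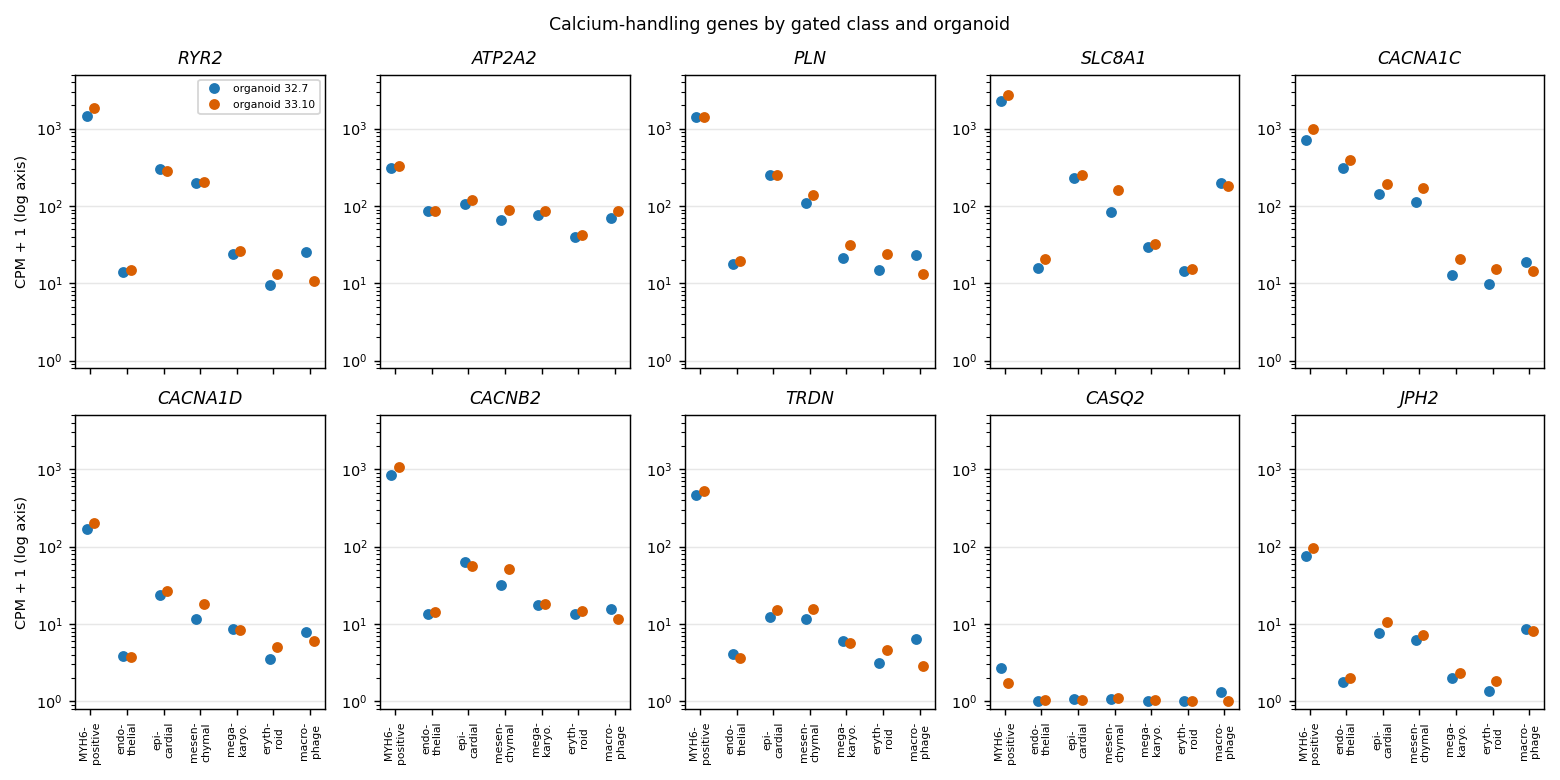
Each panel plots the level of 1 gene as CPM plus 1 (log axis) in the MYH6-positive class and the 6 other gated classes, with 1 point per organoid. The MYH6-positive points lie above all others in every panel, CACNA1C and ATP2A2 have the smallest gaps, and CASQ2 stays near the bottom of the axis in all classes.

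RYR2 encodes the release channel of the cardiac sarcoplasmic reticulum. It stood at 1442 CPM in the MYH6-positive cells of organoid 32.7 and at 1841 CPM in those of organoid 33.10. Epicardial-gated cells followed with 300.3 and 284 CPM, then mesenchymal cells with 199 and 203 CPM. These 2 classes did not pass the test of their difference (log2 fold change 0.46 ± 0.27 SE, adjusted p = 0.60, edgeR). Megakaryocyte, macrophage, endothelial and erythroid cells lay between 8.64 and 25.0 CPM, and no neighbours in that order passed the test. Megakaryocyte cells were higher than endothelial and erythroid cells, which are not their neighbours (adjusted p = 0.0044 and 0.028, edgeR). The step from mesenchymal to megakaryocyte cells was a log2 fold change of 2.71 ± 0.29 (adjusted p = 6.18e-06, edgeR).

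TRDN and JPH2 belong to the junction that RYR2 sits in: triadin anchors the release channel to the store's calcium-binding protein, and junctophilin ties the reticulum to the surface membrane. TRDN was at 460 and 517 CPM in MYH6-positive cells. It was at 11.2 and 14.0 CPM in epicardial-gated cells, at 10.6 and 14.4 CPM in mesenchymal cells and at 1.89 to 5.31 CPM in the 4 remaining classes. Against epicardial-gated cells its log2 fold change of 5.41 ± 0.26 (adjusted p = 2.86e-08, edgeR) compared with 2.62 ± 0.28 for RYR2. JPH2 was at 73.7 and 95.9 CPM in MYH6-positive cells. Epicardial-gated cells (6.73 and 9.76 CPM) and macrophages (7.65 and 7.18 CPM) came next, and their difference did not pass the test (adjusted p = 0.64, edgeR), and endothelial and erythroid cells were at 0.371 to 1.03 CPM.

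CASQ2, the cardiac calsequestrin that buffers calcium in the store, was nearly absent. MYH6-positive cells held 18 UMIs of it in organoid 32.7 and 9 in organoid 33.10, which is 1.70 and 0.752 CPM. The other 6 classes held 0 to 3 UMIs per organoid. The largest adjusted p of its 6 comparisons was that against macrophages (adjusted p = 0.029, edgeR), whose 3 UMIs all came from organoid 32.7. With cells of 5000 to 20000 UMIs it no longer passed the filter on low counts. Against erythroid cells, where neither library had a UMI, the level was at least 12.8-fold higher, taking 3 counts over both erythroid libraries as the limit. After each cell was thinned to 3000 UMIs, only 0.756% and 0.295% of MYH6-positive cells had a CASQ2 UMI.

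ATP2A2 encodes the pump that refills the reticulum, and PLN encodes phospholamban, the small protein that restrains the pump. ATP2A2 was at 309 and 324 CPM in MYH6-positive cells, yet it was also present in every other class, from 39.0 and 41.0 CPM in erythroid cells to 104 and 119 CPM in epicardial-gated cells. Its log2 fold changes were between 1.65 ± 0.12 (epicardial) and 2.41 ± 0.13 (erythroid), the narrowest range of the 10 genes. PLN was at 1406 and 1416 CPM in MYH6-positive cells and was the gene whose 2 organoids lay closest together. It was at 251 and 253 CPM in epicardial-gated cells and at 109 and 138 CPM in mesenchymal cells, a log2 difference of 0.96 ± 0.24 that did not pass the test (adjusted p = 0.16, edgeR) and passed it with the organoid as a block (adjusted p = 0.026). SLC8A1, CACNA1D and ATP2A2 were likewise called higher in epicardial-gated than in mesenchymal cells with the block alone (adjusted p = 0.015, 0.023 and 0.019, edgeR). How many of all genes the block called between these classes was not counted, so these calls have no background beside them. Endothelial, megakaryocyte, erythroid and macrophage cells had 12.1 to 30.6 CPM of PLN. The pump stood at 12.6% to 36.7% of its MYH6-positive level in the 6 other classes, and its inhibitor at 0.854% to 17.9%.

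SLC8A1 encodes the sodium-calcium exchanger that exports calcium from the cell. It was at 2272 and 2758 CPM in MYH6-positive cells. Epicardial-gated cells (232 and 254 CPM) and macrophages (199 and 181 CPM) were next, with a log2 fold change of 0.08 ± 0.22 between them (adjusted p = 0.78, edgeR). Macrophages were higher than the mesenchymal class, with 82.6 and 161 CPM (log2 fold change 0.86 ± 0.22, adjusted p = 0.0058, edgeR). Erythroid and endothelial cells were lowest, at 13.4 to 19.6 CPM. SLC8A1 overlaps 3 counted genes on the opposite strand, 1 of them SLC8A1-AS1, and how far reads of the strands were separated was not tested.

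CACNA1C and CACNA1D encode pore subunits of L-type channels, and CACNB2 encodes an auxiliary beta subunit that brings the pore to the membrane. CACNA1C was at 707 and 975 CPM in MYH6-positive cells and at 310 and 388 CPM in endothelial cells. The log2 fold change between these classes, 1.29 ± 0.26 (adjusted p = 0.0010, edgeR), was the smallest of the 60. Endothelial cells were in turn higher in CACNA1C than the 5 other non-cardiomyocyte classes, the nearest being epicardial-gated cells with 143 and 194 CPM (log2 fold change 1.17 ± 0.26, adjusted p = 0.0023, edgeR). CACNA1D and CACNB2 did not share this. CACNA1D was at 170 and 204 CPM in MYH6-positive cells and at 2.81 and 2.78 CPM in endothelial cells. CACNB2 was at 832 and 1074 CPM in MYH6-positive cells and at 12.3 and 13.4 CPM in endothelial cells. Erythroid cells had 2.51 and 4.06 CPM of CACNA1D, 12.6 and 13.6 CPM of CACNB2 and 8.92 and 14.4 CPM of CACNA1C. In CPM, of the 3 channel genes only CACNA1C was higher in endothelial than in erythroid cells in both organoids. The edgeR test, which also scales between classes, called CACNA1D and CACNB2 lower in endothelial than in erythroid cells. Their log2 fold changes were -0.87 ± 0.25 and -0.63 ± 0.21 (adjusted p = 0.011 and 0.023, edgeR). CACNA1C overlaps 3 counted genes on its own strand and 8 on the other, and how this affected its UMIs was not tested.

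Free RNA was not removed from these counts, so a low level outside cardiomyocytes cannot be read as expression by itself. The level of each gene relative to MYH6-positive cells was therefore set beside that of 8 cardiomyocyte markers (TNNT2, TNNI1, MYL7, MYL4, ACTN2, TTN, NKX2-5 and NPPA). In endothelial cells the markers had 0.616% to 2.86% of their cardiomyocyte level. RYR2, PLN, SLC8A1, CACNA1D, CACNB2, TRDN and JPH2 lay at 0.509% to 1.65%, within a range close to that of the markers, whereas ATP2A2 (27.3% and 25.9%) and CACNA1C (43.9% and 39.8%) lay far above it. In erythroid cells 8 of the 9 genes other than CASQ2 lay at 0.464% to 1.99%, and ATP2A2 was at 12.6% in both organoids. The markers there lay at 0.403% to 13.1%, with medians of 0.694% and 0.826%.

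Epicardial-gated cells differed from this pattern. RYR2 reached 20.8% and 15.4% of its level in MYH6-positive cells, PLN 17.9% in both organoids, CACNA1C 20.2% and 19.9%, CACNA1D 13.5% and 12.5%, and SLC8A1 10.2% and 9.21%. TRDN was at 2.44% and 2.70%. The 8 cardiomyocyte markers had a median of 3.17% and 3.45% there, from 0.509% (NPPA) to 11.4% (TNNI1). TRDN thus stood with the median marker, and ATP2A2 (33.6% and 36.7%), RYR2, CACNA1C, PLN and CACNA1D stood above all 8 markers in both organoids. Smooth muscle and mural genes (a list of 6, with ACTA2 and MYH11) summed to 1490 and 1537 CPM in MYH6-positive cells, the highest of the 7 classes, to 894 and 937 CPM in epicardial-gated cells, 945 and 1134 CPM in mesenchymal cells and 67.1 and 70.2 CPM in erythroid cells, and their part in the result was not tested. In mesenchymal cells RYR2 was at 13.8% and 11.0%, CACNA1C at 15.7% and 17.3%, PLN at 7.74% and 9.74% and TRDN at 2.31% and 2.79%, where the markers reached 13.6% and 10.5%. When the epicardial-gated cells were limited to the 980 and 1289 cells without a single MYH6 UMI, a limit set after the data were seen, RYR2 still stood at 20.3% and 14.3%, PLN at 17.4% and 17.5% and TRDN at 1.99% and 1.60%. All 10 genes remained lower there than in MYH6-positive cells. The part of free RNA or of unrecognized cell pairs in these values was not tested.

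**Figure D2:**
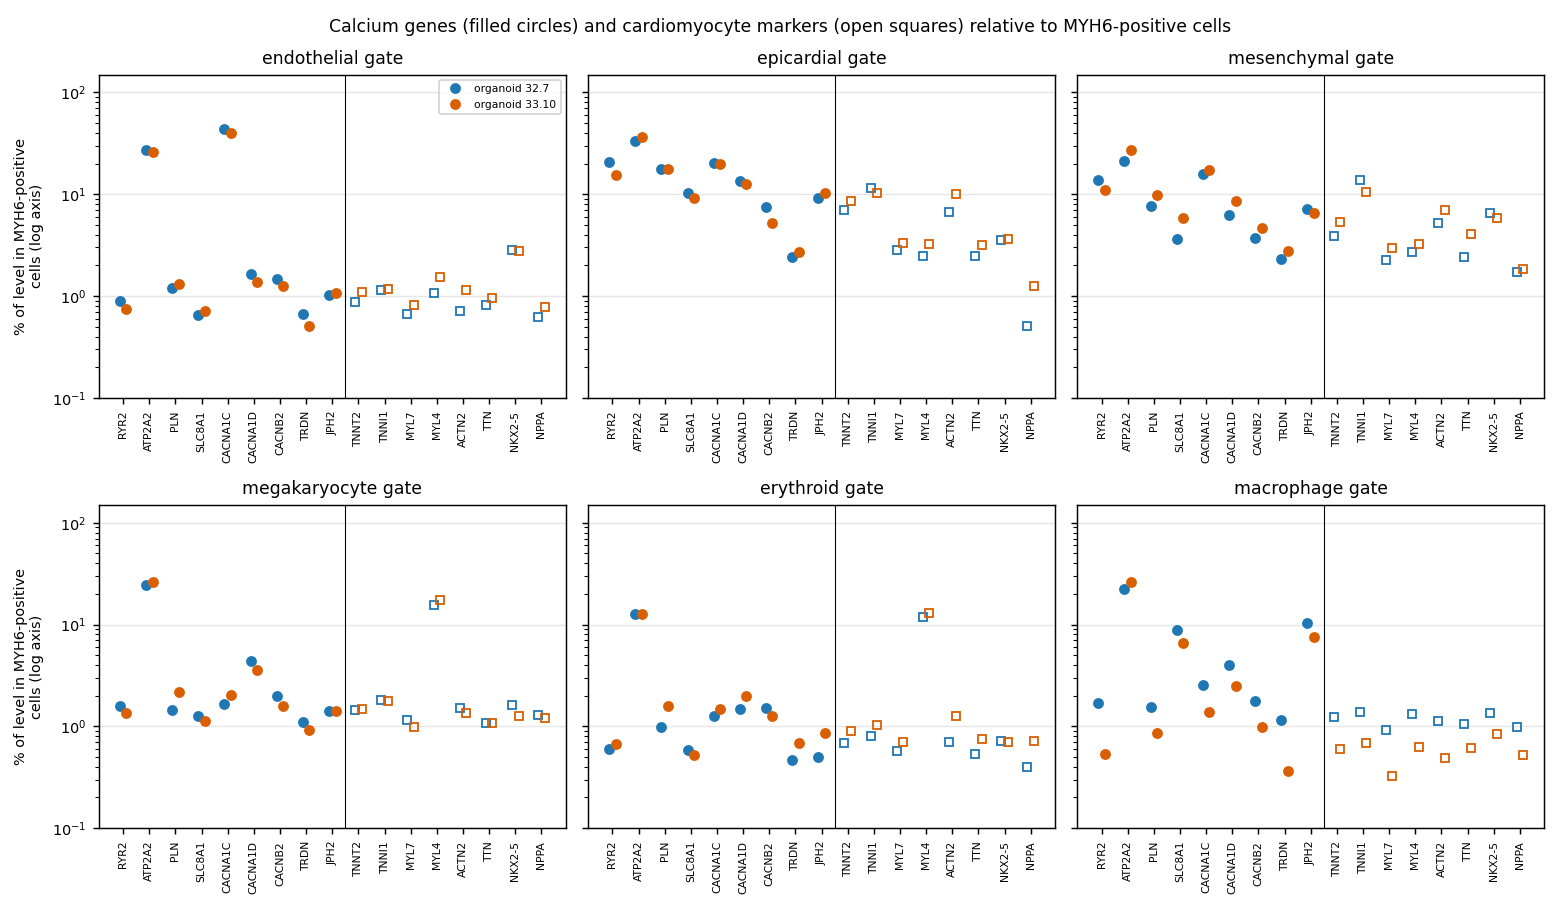
For each of the 6 other classes the plot gives the level of 9 genes (filled circles, CASQ2 left out for its low counts) and of 8 cardiomyocyte markers (open squares) as a percentage of the level in MYH6-positive cells (log axis), 1 symbol per organoid. CACNA1C and ATP2A2 stand apart in endothelial cells, RYR2, ATP2A2, PLN and CACNA1C in epicardial-gated cells, and SLC8A1, JPH2 and ATP2A2 in macrophages.

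The share of cells in which a gene was seen followed the same lines once each cell had been thinned to 3000 UMIs, which left out 217 and 89 MYH6-positive cells. SLC8A1 was seen in 87.3% and 94.4% of MYH6-positive cells, PLN in 85.6% and 89.1%, RYR2 in 82.6% and 89.7%, CACNB2 in 68.6% and 82.6% and TRDN in 65.0% and 72.8%. JPH2 was seen in 15.0% and 24.8%. Without thinning the MYH6-positive shares of RYR2 were 80.1% and 92.0%. In erythroid cells, taken here as the background class, RYR2 was seen in 1.77% and 3.28% (exact 95% binomial intervals 0.85% to 3.23% and 2.44% to 4.31%). In epicardial-gated cells RYR2 was seen in 42.5% (39.5% to 45.5%) and 42.4% (39.8% to 45.0%), and TRDN in 3.28% and 4.15%, beside 1.24% and 1.41% for TRDN in erythroid cells. CACNA1C was seen in 40.9% and 48.2% of endothelial and 3.18% and 4.15% of erythroid cells. SLC8A1 was seen in 35.6% and 32.7% of macrophages and 3.36% and 3.35% of erythroid cells. The median unthinned depth was 15363 and 10732 UMIs in erythroid cells and 6980 and 9155 in MYH6-positive cells. These intervals cover counting error only, and the shares carry no scaling between classes.

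**Figure D3:**
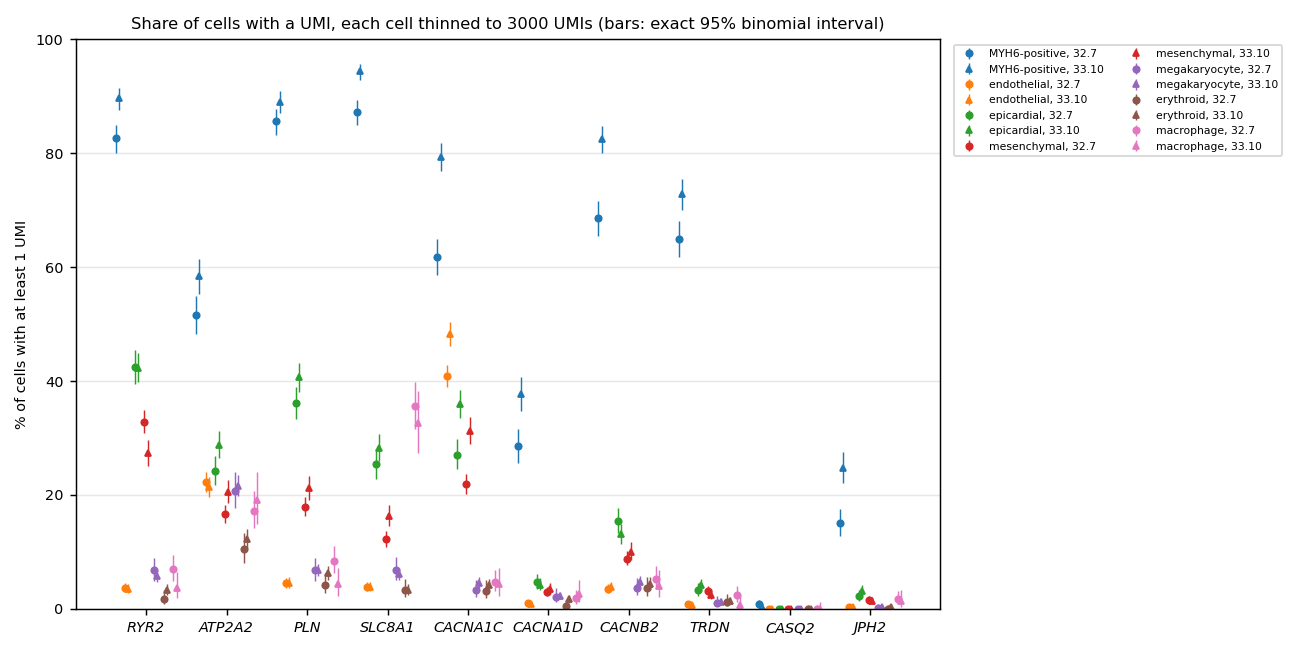
The plot gives, for each gene and gated class, the percentage of cells with at least 1 UMI after thinning every cell to 3000 UMIs, with exact 95% binomial intervals (circles, organoid 32.7; triangles, organoid 33.10). MYH6-positive cells are highest for every gene, endothelial cells are second for CACNA1C, epicardial-gated cells for RYR2 and PLN, and macrophages for SLC8A1.

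At 3000 UMIs a MYH6-positive cell showed a median of 6 of the 10 genes in organoid 32.7 and 7 in organoid 33.10. The medians were 2 in epicardial-gated cells, 1 in endothelial, mesenchymal and macrophage cells and 0 in megakaryocyte and erythroid cells in both organoids. At least 3 of the genes were seen together in 91.0% and 96.2% of MYH6-positive cells, in 26.8% and 33.1% of epicardial-gated cells and in 0.530% and 1.74% of erythroid cells.

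The genes were next followed along the level of the gate gene, in cells that passed no other gate and were binned by MYH6 UMIs. RYR2 rose from 97.2 and 109 CPM in cells with 0 MYH6 UMIs to 496 and 807 CPM at 2 to 4 UMIs, 828 and 1407 CPM at 5 to 9, and 1785 and 2571 CPM at 50 or more. PLN reached 1373 and 1366 CPM at 10 to 19 MYH6 UMIs and was at 1497 and 1461 CPM at 50 or more, where RYR2, SLC8A1, CACNA1C and ATP2A2 still increased. CACNA1D was likewise flat, with 173 and 215 CPM at 10 to 19 and 184 and 215 CPM at 50 or more. ATP2A2 went from 72.8 and 86.4 CPM to 447 and 446 CPM. Cells just below the gate (2 to 4 UMIs, 613 and 408 cells) had 810 and 1414 CPM of SLC8A1, and cells just inside it (5 to 9 UMIs, 383 and 315 cells) had 1255 and 2199 CPM. Levels thus rose across the gate without a gap at its threshold. Median depth rose along the bins from 2378 and 3449 to 19489 and 21271 UMIs per cell, and its part in the trend was not tested. No test was made over bins.

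**Figure D4:**
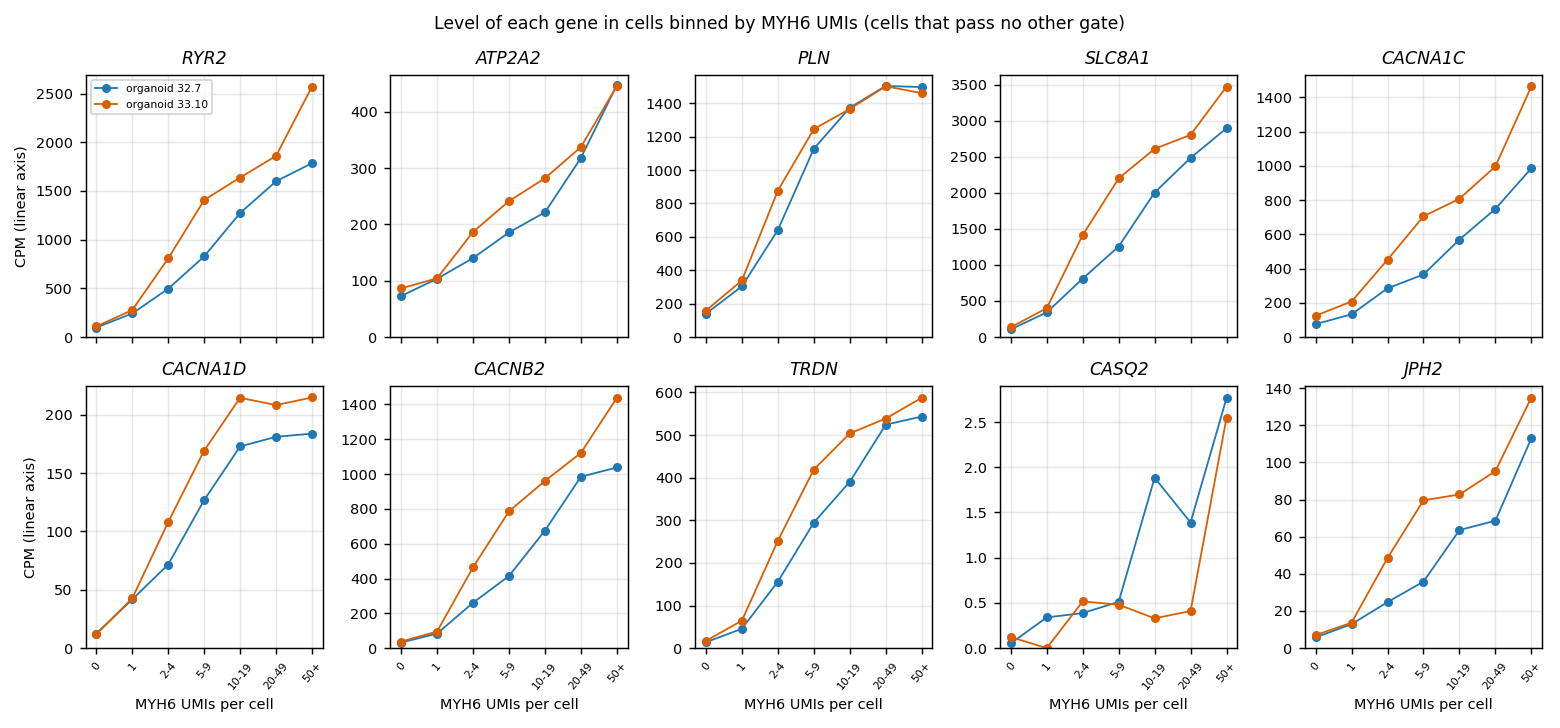
Each panel plots 1 gene in CPM (linear axis from 0, scaled per panel) against the number of MYH6 UMIs per cell in 7 bins, with 1 line per organoid, for cells that passed no other gate. Levels rise with MYH6 UMIs, PLN and CACNA1D flatten from 10 UMIs on, and in the bins of 2 to 4 and 5 to 9 UMIs organoid 33.10 lies above organoid 32.7 for the 9 genes other than CASQ2.

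Cells that passed both the MYH6 gate and the endothelial gate (130 and 89) had median depths of 18365 and 18415 UMIs, above the medians of either class. RYR2 was at 38.4% and 39.7% of its level in MYH6-positive cells, and the 9 genes had a median of 38.4% and 40.0%. CACNA1C was at 65.3% and 61.7% and ATP2A2 at 57.0% and 52.6%, the genes that endothelial cells also carried. Cardiomyocyte markers had a median of 36.8% and 47.6% in the same cells. Cells that passed both the MYH6 gate and the mesenchymal gate (380 and 369) had median depths of 14658 and 15844 UMIs and a different pattern. The 9 genes had a median of 104% and 98.9% of their level in MYH6-positive cells, with RYR2 at 118% in both organoids and CACNA1D at 143% and 145%, while the cardiomyocyte markers had a median of 70.4% and 76.7%. Both groups entered the MYH6-positive class only in the alternative that keeps cells of several gates, and whether they are pairs of cells was not tested.

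Within the MYH6-positive class, cycling cells (at least 3 UMIs of TOP2A and MKI67 together, 39 and 43 cells) were compared with cells without a UMI of either gene (1017 and 992 cells). The question was whether the calcium genes differ with the cell cycle. Of the 10 genes, 7 were lower in cycling cells and 0 were higher (edgeR, adjusted p under 0.05), where 4.96% of 21152 genes were called lower and 5.36% higher. The median log2 fold change of the 10 genes was -1.15, beside -0.20 over all genes. PLN was at 534 and 615 CPM in cycling cells and at 1503 and 1511 CPM in the others, a log2 fold change of -1.53 ± 0.24 (adjusted p = 0.00097, edgeR). RYR2 was at 694 and 1007 CPM against 1495 and 1941 CPM (adjusted p = 0.018, edgeR). SLC8A1, CACNB2 and TRDN had log2 fold changes of -1.16, -1.14 and -1.22, CACNA1D of -0.83 and ATP2A2 of -0.51 (adjusted p = 0.021 for ATP2A2, edgeR). CACNA1D and ATP2A2 were not called under several alternatives, which the closing section names. The 2 groups did not overlap in the 7 genes called lower, nor in JPH2, which was not called. How many of all genes did not overlap was not counted. The 7 genes were picked by a test on the same values, so this adds no support.

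CASQ2 held too few UMIs to show a direction and was not called. CACNA1C (547 and 767 CPM against 721 and 1001 CPM, adjusted p = 0.24) and JPH2 (73.7 and 68.2 CPM against 74.5 and 97.8 CPM, adjusted p = 0.24) did not pass the same edgeR test. With the organoid as a block, CACNA1C passed it (log2 fold change -0.53 ± 0.17, adjusted p = 0.0495), which made 8 genes lower. Of all 21152 genes, 1373 were called lower and 1285 higher with the block. CACNA1C was also called lower with no filter on low counts (log2 fold change -0.50 ± 0.16, adjusted p = 0.029, edgeR). Without that filter 1363 of 32463 genes were called lower and 1467 higher. When 10% of each class sum was removed in proportion to the library's whole profile, 2 of the 10 genes passed (RYR2 and TRDN). Of all 21045 genes tested there, 571 were called lower and 1350 higher, beside 1049 and 1134 of 21152 in the main fit. The log2 fold changes of the 5 other genes called in the main fit stayed near their values. They were -1.53 for PLN, -1.14 for SLC8A1, -1.12 for CACNB2, -0.80 for CACNA1D and -0.47 for ATP2A2, and their errors were larger, for PLN 0.65 in place of 0.24. Of the 8 cardiomyocyte markers, NKX2-5 and MYL4 were also lower in cycling cells (log2 fold changes -1.06 and -0.93, adjusted p = 0.0061 and 0.041, edgeR). All 8 markers together summed to 19418 and 18963 CPM in cycling cells against 30423 and 26705 CPM. The 6 macrophage markers summed to 483 and 632 CPM in cycling and 100.3 and 24.3 CPM in non-cycling cells, and median depth was 11258 and 17053 against 6843 and 8635 UMIs. The part of other cells' RNA in this difference was not tested. With cells of 5000 to 20000 UMIs alone 7 genes were again lower, where 316 of 19520 genes were called lower and 550 higher. Cells with at least 3 UMIs of MYL2, the ventricular regulatory light chain, numbered 16 and 13, too few for a fit. Their levels of RYR2 were 1323 and 2049 CPM, beside 1448 and 1839 CPM in cells without MYL2.

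The endothelial signal of CACNA1C and the macrophage signal of SLC8A1 were examined within their classes, in splits chosen after the data were seen. Endothelial cells with arterial genes (at least 2 UMIs of CXCR4, DLL4 and GJA5 together and none of NR2F2, 1458 and 1378 cells) had 351 and 451 CPM of CACNA1C. Cells with the venous factor NR2F2 (at least 2 UMIs, none of the arterial genes, 152 and 136 cells) had 139 and 129 CPM. The log2 fold change was 1.77 ± 0.28 (adjusted p = 0.00058, edgeR). CACNA1C was the only 1 of the 10 genes called in this comparison, in which 10.2% of 21126 genes were called higher and 4.85% lower in arterial cells. A count of 1 of 10 is near the share over all genes, so it describes CACNA1C alone and not the 10 genes as a set. Mesenchymal markers summed to 63.3 and 55.3 CPM in arterial and 331 and 201 CPM in venous cells, and cardiomyocyte markers to 224 and 223 CPM against 333 and 276 CPM. The part of other cells' RNA in this split was not tested.

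Macrophages with complement C1q (at least 3 UMIs of C1QA and C1QB, 419 and 193 cells) had 238 and 230 CPM of SLC8A1, and macrophage-gated cells without C1q UMIs (106 and 97 cells) had 75.9 and 85.3 CPM. The log2 fold change was 1.78 ± 0.24 (adjusted p = 0.00073, edgeR). SLC8A1 was the only gene of the 10 called, where 6.34% of 21321 genes were called higher and 3.73% lower in C1q-positive cells. Here too a count of 1 of 10 is near the share over all genes. With the organoid as a block, JPH2 was also called, lower in the C1q-positive cells (4.87 and 5.82 CPM against 16.3 and 10.4 CPM, adjusted p = 0.030, edgeR). Of all 21321 genes, 1965 were called higher and 955 lower with the block. Endothelial markers summed to 237 and 176 CPM in C1q-positive and 429 and 1177 CPM in C1q-negative cells, and this list's part in the split was not tested.

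**Figure D5:**
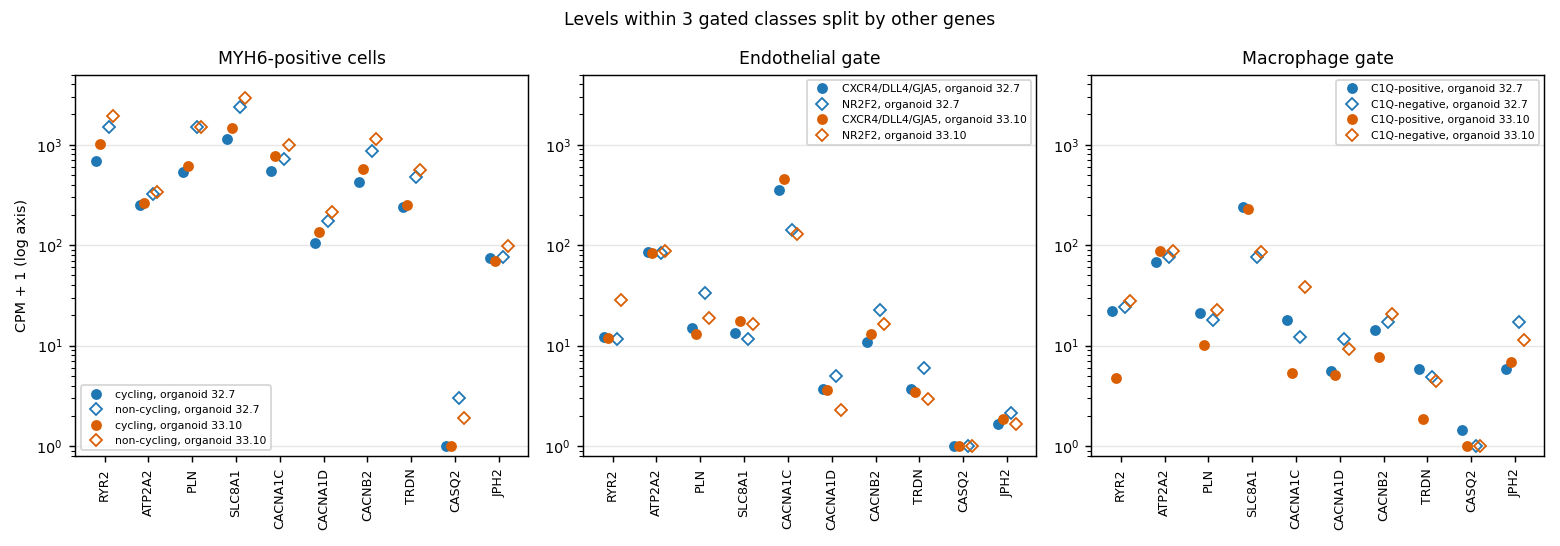
The plot gives the level of each gene (CPM plus 1, log axis) in cycling and non-cycling MYH6-positive cells (left), endothelial cells with arterial genes or NR2F2 (middle) and macrophages with or without C1q (right), 1 symbol per organoid. On the left the filled symbols of PLN, RYR2, SLC8A1, CACNB2, TRDN, CACNA1D and ATP2A2 lie below the open ones, and the filled symbols lie above the open ones for CACNA1C in the middle and SLC8A1 on the right.

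The rest of the calcium-handling system was read from a list of 84 further genes, of which 79 passed the filter on low counts. In this list 45 genes were higher and 18 lower in MYH6-positive than in endothelial cells, 28 and 19 against epicardial-gated, 32 and 18 against mesenchymal, 33 and 23 against megakaryocyte, 46 and 6 against erythroid and 37 and 20 against macrophage cells. Over all 21681 genes the shares called higher were 28.2%, 16.6%, 16.8%, 28.7%, 32.1% and 29.2% in the same order. The shares called lower were 28.0%, 20.5%, 20.4%, 28.9%, 26.8% and 28.1%. The lower counts against mesenchymal, megakaryocyte and macrophage cells lay near these shares of the 79 genes. Of the 79 genes, 15 were higher in all 6 comparisons and 1 was lower in all 6. Of all 21681 genes, 1436 (6.62%) were higher and 702 (3.24%) lower in all 6, the background for the counts by group.

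Among reticulum store and coupling proteins, 5 of 12 were higher in all 6 comparisons. CASQ1, the skeletal muscle calsequestrin, was at 9.27 and 11.5 CPM in MYH6-positive cells and at most at 0.70 CPM elsewhere. HRC, a histidine-rich calcium-binding protein of the store, was at 111 and 106 CPM, and SRL, sarcalumenin, at 31.6 and 38.0 CPM. TMEM38A and SPEG were the other 2. JPH1, outside the naming rule and chosen after its values were seen, was at 36.4 and 41.8 CPM in MYH6-positive cells and at 29.7 and 34.3 CPM in endothelial cells.

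Of the 4 tested pumps and small pump regulators, ATP2A1 (4.07 and 4.60 CPM) and PPP1R1A, a phosphatase inhibitor (216 and 176 CPM), were higher in all 6. ATP2A3, named after its values were seen, was at 103 and 100.4 CPM in megakaryocyte cells and at 4.54 and 5.10 CPM in MYH6-positive cells. None of the 12 release channels and partners was higher in all 6: RYR1 was at 8.42 and 13.0 CPM in MYH6-positive cells and 25.3 and 22.3 CPM in macrophages, and ITPR2, an inositol trisphosphate receptor, was at 39.2 and 49.5 CPM and 338 and 314 CPM (both named after their values were seen).

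Channel subunits beyond the 10 were mixed. Of 8 other L-type subunits none was higher in all 6 comparisons. CACNA2D1, chosen after its values were seen, was higher in epicardial-gated cells (271 and 285 CPM) than in MYH6-positive cells (90.0 and 98.8 CPM). Among 5 T-type and neuronal pores, CACNA1B was higher in all 6 (8.04 and 14.8 CPM). In the store-operated group, 1 of 8 genes, not named here, was higher in all 6 comparisons and 0 were lower in all 6. TRPC6, a cation channel of this group named after its values were seen, was at 92.5 and 92.8 CPM in megakaryocyte cells. It was at 0.473 and 1.00 CPM in MYH6-positive cells. None of 9 plasma membrane extrusion genes was higher or lower in all 6.

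In the adrenergic and kinase group, 6 of 13 genes were higher in all 6 comparisons. They included ADCY5, a cardiac adenylyl cyclase, at 91.9 and 110 CPM, and the calmodulin kinase genes CAMK2B at 8.13 and 8.86 CPM and CAMK2A at 25.3 and 28.1 CPM, with AKAP6, CAMK2D and CAMK2G as the others. In the mitochondrial group of 8, MCUB, the inhibitory subunit of the calcium uniporter, was the only gene lower in all 6, at 4.92 and 3.85 CPM in MYH6-positive cells and at 62.9 and 87.7 CPM in macrophages.

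The likeness of patterns was described by Pearson's r of log2(CPM + 5) over 14 points, the 7 classes in each of 2 organoids, which share libraries and are not independent. Between pairs of the 10 genes r was between 0.55 (CACNA1C with CASQ2) and 0.99 (CACNA1D with CACNB2), with a median of 0.87. All 10 genes were highest in the MYH6-positive class, so high r between them was to be had from that class alone. No r over other pairs of genes was set beside it. CASQ2 stood at no more than 1.70 CPM, under the 5 CPM added, so its r values rest on few UMIs. Outside the 10 genes and the gates, the closest to RYR2 were IRX5 and PLPPR4 (both 0.99), to PLN LIX1 and AC106738.1 (both 0.99), to TRDN SGCA and GJA3 (both 1.00), to CACNB2 MLIP (1.00) and MYOCD (0.99) and to CACNA1D CMYA5 and MYOCD (both 0.99). CACNA1C was closest to PDGFD and FILIP1 (both 0.99), ATP2A2 to PRKAG2 (0.98) and MSS51 (0.96), and SLC8A1 to its antisense gene SLC8A1-AS1 (0.99) and TMTC1 (0.98). JPH2 was closest to SLC8A1-AS1 and FABP3 (both 0.99), and CASQ2 to KCNQ5-AS1 and LINC00514 (both 0.98).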

How the data were processed

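Per the labels and the study's methods, the authors prepared single-cell libraries of 2 organoids with a 3′ droplet kit (version 3.1), aligned reads to GRCh38 with Cell Ranger, counted intronic and exonic reads, and deposited UMI counts per gene and barcode without normalization. The study removed free RNA and equalized depth later, so these counts hold free RNA. The libraries had 191152562 and 233818881 UMIs.

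Cells with 50 to 11000 genes and under 30% mitochondrial UMIs were kept, as in the study. Cells were gated by summed raw UMIs: MYH6 at least 5; CDH5, ESAM and CLDN5 at least 5 (endothelial); TBX18 and WT1 at least 2 (epicardial); LUM, PRRX1 and PDGFRA at least 3 (mesenchymal); ITGA2B, GP9 and TUBB1 at least 5 (megakaryocyte); an erythroid list with ALAS2 and SLC4A1 at least 5; CD14, CSF1R, MRC1 and CD163 at least 3 (macrophage). Gates on raw UMIs depend on depth. No doublet caller was run. Cells that met both the epicardial and the mesenchymal threshold counted as epicardial alone. Cells passing several gates after this rule (13.6% and 15.5%) were left out. A foregut gate (AFP, SERPINA1 and HNF4A at least 5) held 190 and 12 cells and stayed out of the fits, which needed 20 cells per organoid.

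UMIs were summed per class and organoid and tested with edgeR 4.0.16 in R 4.3.3 (quasi-likelihood test, TMM, genes filtered by expression, Benjamini-Hochberg adjustment over all genes, threshold 0.05). The test was checked on simulated counts drawn without an organoid effect shared between classes, so the check does not cover such an effect. DESeq2 1.42.0 was an alternative. SE is derived from the fold change and its F statistic. CPM is UMIs per 1000000 of the class sum. CPM values and percentages of them do not carry the TMM scaling of the tests. All classes of an organoid come from the same organoid, so the organoid pairs them: over 10585 genes, organoid differences correlated between all 21 pairs of classes (r 0.22 to 0.69). In the main tests all classes entered the same fit without the organoid as a block. P-values there measure the spread of class sums between the 2 organoids, pooled over classes, and leave the pairing aside. The 10 genes, gates and lists were chosen with earlier results of these data known. Named further genes were, per group, up to 3 higher and 2 lower in all 6 comparisons by mean log2 fold change, and per member the 2 closest patterns. Alternatives are given in the closing section. Some items are not reported here.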

Additional observations from a re-analysis of the deposited data

How the results depend on the processing

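Against the 6 other classes, 10 genes were called higher under MYH6 gates of 2 and 10 UMIs, a stricter cell filter, 10% ambient profile removal, library sizes alone, no filter on low counts, the organoid as a replicate block and, an alternative chosen after seeing the data, other classes without MYH6 UMIs. With cells of 5000 to 20000 UMIs the count was 9, since CASQ2 did not pass the filter on low counts, and against macrophages it was 9 with DESeq2 and with multi-gate cells kept; CASQ2 was the gene lost against macrophages under these last 2 (adjusted p = 0.12 and 0.059). The 7 genes lower in cycling cells became 2 with 10% of the ambient profile removed, and 5 to 8 under the other alternatives. Over all genes that removal moved the calls higher and lower from 1134 and 1049 to 1350 and 571. The log2 fold changes of the 5 genes lost with the ambient profile removed stayed between -1.53 and -0.47, with larger errors. ATP2A2 was also not called with a MYH6 gate of 10 UMIs, the stricter cell filter, library sizes alone or no filter on low counts (adjusted p 0.052 to 0.16, edgeR). CACNA1D was also not called with the gate of 10 UMIs or library sizes alone. With no filter on low counts CACNA1C was called lower, so the 7 genes called there are not the 7 of the main fit. The replicate block gave 8 in place of 7 for cycling cells and 2 in place of 1 for the C1q split, and changed no other call in the 6 class comparisons and 3 splits. Among the 150 tests of the 10 genes between the 6 other classes, an alternative chosen after seeing the data, the block added 7 calls, 4 of them between epicardial-gated and mesenchymal cells and 3 of ATP2A2 between endothelial and epicardial, endothelial and megakaryocyte, and epicardial and macrophage cells, and removed 0. The share of all genes called with the block was not counted for these pairs of classes. Each organoid alone gave the same direction for all 10 genes in the 6 class comparisons and in the cycling comparison. CASQ2 adds little to this, since its UMIs were too few to show a direction between cycling and non-cycling cells. With 1 organoid no residual degrees of freedom remained, so these are ratios without a test. Thinning to 1500 in place of 3000 UMIs lowered the share of cells with at least 3 of the genes to 76.9% and 90.4% (MYH6-positive), 14.5% in both organoids (epicardial-gated) and 0.518% (erythroid, organoid 33.10). With library sizes alone the median log2 fold change over all genes against erythroid cells moved from 0.13 to 0.70, and the genes called higher and lower went from 6950 and 5805 to 10406 and 2933, against megakaryocyte cells from 6226 and 6270 to 7896 and 4441, against epicardial-gated cells from 3593 and 4452 to 2902 and 5626, and for cycling cells from 1134 and 1049 to 1468 and 579. The MYL2 comparison and its alternatives were not run for lack of cells.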
